A study of Saccharomyces cerevisiae with 64 samples.

Results

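The small subunit ribosomal protein genes of budding yeast, Saccharomyces cerevisiae, were taken as every gene whose standard symbol in the R64 annotation is RPS followed by a number and, for duplicated genes, A or B. The rule found 56 genes of the 6660 in the deposited table, and all 56 had a value in all 32 conditions. They make up 24 pairs of A and B copies (48 genes) and 8 single-copy genes, lie on 14 chromosomes, and 36 of the 56 have an intron in the coding part. The 76 genes of the large subunit, whose symbols begin with RPL, were used for comparison.

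The small subunit binds messenger RNA, scans it for the start codon and holds the decoding centre, where codons meet transfer RNAs. Its proteins assemble on ribosomal RNA in the nucleolus, and their genes are among the most strongly transcribed in growing yeast, driven mainly by Rap1 with Fhl1, Ifh1 and Sfp1 under control of nutrient signals through TOR and protein kinase A. Yeast cells cut this transcription when nutrients run out, which is also the signal for diploid cells to enter meiosis and form spores. A whole-genome duplication left most of these genes in pairs, which encode identical or nearly identical proteins but can differ in promoter, intron and transcript level.

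The study sequenced poly(A) RNA from strains of the S288c background that had been put through sporulation, in 32 groups of 2 biological replicates. The groups were kfc1 mutant and wild type (WT) without overexpression at 0, 2, 4, 6, 8 and 12 h. In the arm named IME1, both genotypes carried the IME1 overexpression construct and were sampled at the same times. In the arm named IME1 and RIM4, both carried both constructs and were sampled at 0, 12, 24 and 48 h. The names stand for the strains: in the last arm RIM4 had a log2 ratio of -0.30 in kfc1 and -0.46 in WT at 0 h. At its later times RIM4 lay between 3.42 and 4.36. The titles name the IME1 construct Pzev; Ime1 is the transcription factor that starts meiosis, and Rim4 is an RNA-binding protein that controls translation of meiotic transcripts. Another series supplied the 24 WT samples of the arms without overexpression and with IME1, so there genotype and series of origin cannot be told apart. Both genotypes with IME1 and RIM4 belong to this one. In WT, a comparison of IME1 and RIM4 with the other arms is therefore also one between series.

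The deposited table combines the replicates into 1 log2 ratio for each gene and condition; it allows no error, no test and no read depth. All values below are log2 ratios to WT without overexpression at 0 h, or differences between such ratios. The columns of kfc1 from 2 to 12 h in the arm without overexpression, 5 in all, were deposited relative to kfc1 at 0 h and were put on the common scale by adding that column. VIR1, which the literature gives as the gene behind the name Kfc1, shows this: as deposited it stood between -0.00 and 1.03 in these 5 columns, although it was at -5.73 in kfc1 at 0 h. A gene was called higher or lower in a comparison when the mean of its differences reached 1 in size (2-fold) and the difference had the same sign at every time point. Medians over all genes lay between -0.03 and 0.01 in each condition, and a lower ratio in bulk RNA cannot tell fewer cells that express a gene from less RNA per cell.

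The sequences of 3 pairs whose copies stood far apart in their ratios come first, because their upstream regions differ in matches to the Rap1 motif. The ratios tell which copy changed more, not which is more abundant. RPS23, RPS24 and RPS7 encode a protein of the decoding centre, a protein of the body of the subunit and a body protein that is ubiquitinated in translational quality control. The motif searched was CANCC, then any 2 bases, then ACA (N being any base), on both strands, in the 500 bases before the start codon (RefSeq genome R64). Each line gives 80 bases, 5′ to 3′ on the strand of the gene, with the motif match in capitals; the copy without a match is shown at the same distance from its start codon as its partner.
RPS23B, chrXVI:794612-794691, plus strand: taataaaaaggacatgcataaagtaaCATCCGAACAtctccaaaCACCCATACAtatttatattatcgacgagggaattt
RPS23A, chrVII:726621-726700, plus strand: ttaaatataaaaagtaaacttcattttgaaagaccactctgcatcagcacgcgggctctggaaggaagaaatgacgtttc
RPS24A, chrV:305951-306030, plus strand: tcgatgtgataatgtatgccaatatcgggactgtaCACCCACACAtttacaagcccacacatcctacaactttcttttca
RPS24B, chrIX:232662-232741, minus strand: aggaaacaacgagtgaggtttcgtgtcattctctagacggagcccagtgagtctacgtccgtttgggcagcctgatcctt
RPS7A, chrXV:505294-505373, plus strand: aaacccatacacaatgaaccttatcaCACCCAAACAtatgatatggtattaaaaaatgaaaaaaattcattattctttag
RPS7B, chrXIV:444736-444815, minus strand: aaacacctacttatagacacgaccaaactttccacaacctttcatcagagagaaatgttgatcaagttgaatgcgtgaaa

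RPS23B had 2 matches and RPS23A 0, RPS24A had 1 and RPS24B 0, and RPS7A had 1 and RPS7B 0. In these 3 pairs the copy with the match was the one with the lower ratios over the study: RPS23B averaged -1.72 over 31 conditions and RPS23A -0.81, RPS24A averaged -1.53 and RPS24B -0.72, and RPS7A averaged -1.25 and RPS7B -0.56. The relation was less regular over the whole family. Of 8 pairs with a match in 1 copy, that copy had the lower mean in 5; 8 pairs had a match in both copies and 8 in neither. The median of the gene means was -1.32 for the 25 genes with a match and -1.04 for the 31 without. A match was present upstream of 44.6% of RPS genes, 43.4% of the 76 RPL genes and 5.98% of 6019 genes of the genome; with the stricter form ACCCANACA, which overlaps the first, the shares were 28.6%, 36.8% and 3.07%. The RPS share was thus near that of the RPL genes with the first form. A match is a description of the letters and was not tested as a binding site.

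The coding parts of the pairs are alike to different degrees, which bears on how reads can be assigned. Coding identity between copies ran from 84.3% (RPS27) to 99.2% (RPS6), and 9 of the 24 pairs encode identical proteins. In capitals are the bases that differ between copies, first in coding bases 1 to 120 of RPS23, where 5 differ, and then in coding bases 61 to 180 of RPS6, where 2 differ.
RPS23A: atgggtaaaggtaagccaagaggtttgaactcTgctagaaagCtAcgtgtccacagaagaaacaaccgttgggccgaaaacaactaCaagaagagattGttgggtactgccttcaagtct
RPS23B: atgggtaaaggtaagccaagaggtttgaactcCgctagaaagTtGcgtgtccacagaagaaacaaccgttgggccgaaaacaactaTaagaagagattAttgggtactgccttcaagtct
RPS6A: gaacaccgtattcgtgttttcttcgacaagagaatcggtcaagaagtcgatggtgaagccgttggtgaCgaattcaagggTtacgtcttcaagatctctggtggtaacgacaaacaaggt
RPS6B: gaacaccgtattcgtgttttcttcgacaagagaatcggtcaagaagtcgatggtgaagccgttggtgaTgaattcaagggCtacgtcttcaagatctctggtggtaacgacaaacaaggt

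RPS23A and RPS23B differ at 15 coding bases in all, spaced so that no stretch of 100 bases is shared, the longest being 80. RPS6A and RPS6B differ at 6 in all and share a stretch of 311 bases. In 4 of the 24 pairs some 100-base coding windows were also found in the partner, a share of 53.4% for RPS6, 17.2% for RPS24 and 13.3% for RPS4, and in the other 20 pairs none were. Reads of up to 100 bases that fall in such windows cannot be assigned to 1 copy by their sequence, so the values of the 8 genes of the 4 pairs are uncertain.

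The family lay below the level of WT without overexpression at 0 h, to which all ratios refer, in most conditions. Of the 56 genes, 27 were below 0 in each of the 31 conditions other than the reference, and the median gene averaged -1.23. In kfc1 without overexpression the family median was -0.11, -1.68, -1.05, -0.64, -0.74 and -0.56 at 0, 2, 4, 6, 8 and 12 h. In WT without overexpression it was -0.40, -0.23, -0.29, -0.31 and -0.29 at 2, 4, 6, 8 and 12 h. The early dip was thus deep and partly recovered in kfc1 and shallow and level in WT. With IME1 the medians at 0, 2, 4, 6, 8 and 12 h were -1.33, -1.06, -1.28, -1.03, -1.10 and -2.62 in kfc1, against -2.79, -0.66, -1.16, -0.85, -0.81 and -1.60 in WT. From 2 to 8 h the medians with IME1 were thus above their own 0 h value in both genotypes. With IME1 and RIM4 they were -1.51, -2.91, -2.54 and -1.97 at 0, 12, 24 and 48 h in kfc1, against -0.65, -1.94, -1.17 and -1.68 in WT. The lowest family medians were therefore those of kfc1 with IME1 and RIM4 at 12 h and of WT with IME1 at 0 h, before the time course began. The RPL medians ran beside the RPS medians, as the plot of medians by condition shows.

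**Figure D1:**
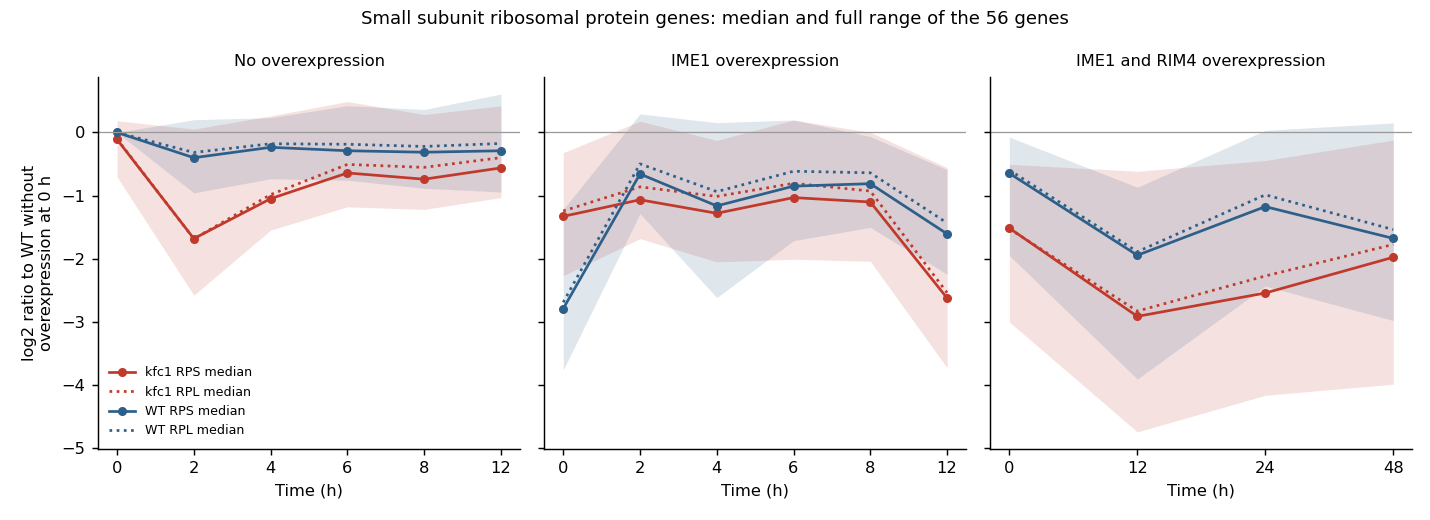
Log2 ratio of the 56 RPS genes to WT without overexpression at 0 h (y axis) against time in hours (x axis, evenly spaced steps) in 3 arms; solid lines are RPS medians, bands the lowest to highest gene, and dotted lines medians of 76 RPL genes, in kfc1 (red) and WT (blue). The kfc1 median was -1.68 at 2 h without overexpression against -0.40 in WT, and WT with IME1 started at -2.79 against -1.33 in kfc1.

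Single genes followed the family closely. The Pearson correlation of each gene with the median of the other RPS genes over 31 conditions had a median of 0.96 and was above 0.9 for 44 of the 56 genes; the points share the reference, the strains and the time courses, so this is a description only. The 4 genes with the lowest values were RPS27A (0.64), RPS30B (0.74), RPS14B (0.75) and RPS22B (0.76). Each belongs to a pair and has a coding intron, but 48 of the 56 genes belong to pairs and 36 have an intron. RPS27A, 1 of the genes for a zinc-binding protein, was above the median of the others in 31 of 31 conditions, and RPS14B, which encodes a platform protein that blocks splicing of its own transcript, in 29 of 31. RPS27A and RPS14B were below 0 in only 19 and 17 of the 31 conditions.

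Without overexpression, kfc1 was compared with WT samples from another series, so a difference cannot be told apart from one between the series. At 0 h 0 of 56 RPS genes were called in either direction, where 0.507% of all genes were called higher and 1.14% lower, and the family median was -0.11. Over 2 to 12 h the median was -0.60, yet only RPS9A was called (lower, -1.10), where 0.37% of all genes were called lower. The difference lay early. At 2 h alone 41 of 56 RPS genes were at least 1 lower in kfc1 (4.62% of all genes), at 4 h 10 (1.82%), at 6 h 1 (0.878%) and at 8 h 2 (0.539%), with 0 of 56 at 12 h (0.292%). The medians of the difference at these times were -1.26, -0.82, -0.32, -0.34 and -0.23. Without the 2 h groups 0 genes were called, and without the 6 h or the 12 h groups 3 were.

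RPS9A and RPS27A mark the ends of this comparison. RPS9A, 1 of 2 genes for a protein near the messenger RNA entry site, stood at -2.06, -0.93, -0.69, -0.82 and -0.03 in kfc1 at 2, 4, 6, 8 and 12 h, against 0.11, -0.08, 0.42, 0.16 and 0.39 in WT. It was lower in kfc1 at each time, although the kfc1 value at 12 h lay within the range of the WT values. RPS9A was also lower in kfc1 at 0 h, at -0.68. Against that 0 h value it stood at -1.38, -0.25, -0.01, -0.13 and 0.65 in kfc1 at 2, 4, 6, 8 and 12 h. The family medians on that scale were -1.52, -0.96, -0.54, -0.66 and -0.48. From its own start RPS9A thus stood above the median gene at each time. RPS27A stood at 0.05, 0.25, 0.34, 0.12 and 0.37 in kfc1, against 0.08, 0.01, 0.13, -0.03 and 0.26 in WT, a mean difference of 0.13. Its partner RPS27B stood at -1.72, -0.89, -0.64, -0.66 and -0.36 in kfc1, against -0.40, 0.14, -0.04, 0.32 and 0.42 in WT. The copies of this pair thus lay on opposite sides of the family, with mean differences of 0.13 for RPS27A (the highest) and -0.94 for RPS27B (the second lowest). RPS17A (-0.93) and RPS23B (-0.91) came next, and RPS14B (-0.07), RPS1A (-0.34) and RPS14A (-0.39) stood at the high end. The deepest single value was that of RPS16B, a gene for a protein whose tail reaches the peptidyl site, with -2.57 in kfc1 at 2 h, against -0.65 in WT.

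Over time within each genotype the same dip is seen against its own starting point. In kfc1 without overexpression 19 of 56 RPS genes were called lower than at 0 h and 0 higher (4.11% of all genes called lower), with a median of -0.81. In WT 0 of 56 were called in either direction (2.37% of all genes higher and 1.29% lower), with a median of -0.30. In kfc1 the count fell to 2 without the 2 h group. Among the lowest members in kfc1 were RPS16B (-1.30), RPS22B (-1.24) and RPS9B (-1.17), and the highest were RPS14B (0.49), RPS27A (0.22), RPS25B (0.09) and RPS7B (-0.05). In WT they were RPS20 (-0.78), RPS9B (-0.65), RPS21A (-0.62) and RPS6A (-0.56) at the low end, and RPS14B (0.34), RPS25B (0.25), RPS9A (0.20) and RPS23A (0.16) at the high end. These and the genotype differences share the kfc1 columns.

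**Figure D2:**
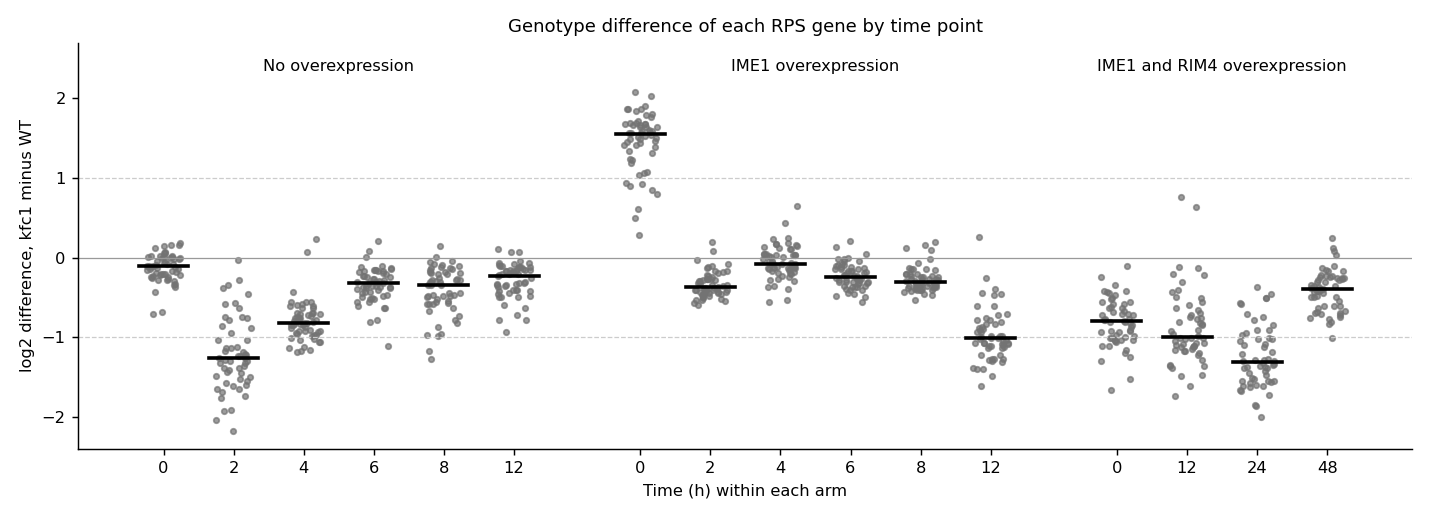
Difference of log2 ratios, kfc1 minus WT (y axis), for each of the 56 RPS genes (points) at each time in hours (x axis) in the 3 arms; bars are medians and dashed lines mark a difference of 1 in size. The median was -1.26 at 2 h without overexpression, 1.55 at 0 h with IME1, and -1.31 at 24 h with IME1 and RIM4.

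With IME1, the genotypes differed most at 0 h and at 12 h, in opposite directions. At 0 h 48 of 56 RPS genes were called higher in kfc1 and 0 lower (10.7% of all genes called higher), with a median of 1.55. Both groups were below 0 for all 56 genes at this time, and WT was the lower: RPS12 stood at -1.85 in kfc1 and -3.76 in WT, and RPS22A at -1.12 in kfc1 and -3.19 in WT. The highest differences were those of RPS22A (2.08), RPS26B (2.03), RPS12 (1.91) and RPS9B (1.87), and the lowest those of RPS30B (0.29), RPS25B (0.49), RPS23A (0.61) and RPS27A (0.80). The IME1 transcript itself was at 0.59 in kfc1 and 1.94 in WT at 0 h, and its part in the result was not tested. Of 26 measured genes for small subunit assembly factors, 12 were called higher in kfc1 at 0 h (median 0.99), among them FAF1 (1.65), KRR1 (1.45), UTP13 (1.35) and DIM1 (1.35). Of 38 translation factor genes 11 were (median 0.57), with ASC1, which encodes a head protein of the small subunit without an RPS name, at 1.77. Of the 26 listed regulators of this gene family 0 were called (median -0.12).

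From 2 to 12 h with IME1, 0 of 56 RPS genes were called in either direction (0.308% of all genes higher and 0.4% lower). The medians were -0.37, -0.07, -0.24 and -0.30 at 2, 4, 6 and 8 h. At 12 h the median was -1.01 and 30 of 56 RPS genes were at least 1 lower in kfc1, where 4.61% of all genes were. RPS23B stood at -3.72 in kfc1 and -2.11 in WT at 12 h, and RPS12 at -2.77 in kfc1 and -1.66 in WT. RPS27A was the exception, with -0.56 in kfc1 and -0.82 in WT, and the other 55 genes were lower in kfc1. At 12 h IFH1, which encodes a coactivator of ribosomal protein genes, stood at 1.49 in kfc1 and -0.44 in WT.

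Over time with IME1 the starting points set the picture. In WT 54 of 56 RPS genes were called higher at 2 to 12 h than at 0 h and 0 lower (24% of all genes called higher), with a median of 1.79, whereas in kfc1 only RPS22B was called (lower, -1.57; 4.99% of all genes called lower). The kfc1 median was -0.11, or 0.24 without 12 h, since its medians by time were 0.26, 0.09, 0.30, 0.23 and -1.38. At the high end in kfc1 stood RPS23A (1.05), RPS25B (0.84), RPS6B (0.80) and RPS24B (0.79), and at the low end, after RPS22B, RPS20 (-0.78) and RPS31 (-0.67). RPS23A had a mean past 1 but not the same sign at each time. In WT the largest rises were those of RPS12 (2.71), RPS6B (2.60), RPS24A (2.53) and RPS19A (2.45), and the smallest values those of RPS22B (-0.21, not called), RPS29A (0.97, not called), RPS30B (1.01) and RPS10B (1.04).

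RPS22B, 1 of the genes for a body protein, behaved unlike its partner RPS22A in this arm. RPS22B stood at -0.45, -1.31, -2.05, -1.85, -2.04 and -2.88 in kfc1 at 0, 2, 4, 6, 8 and 12 h, against -1.38, -0.80, -2.18, -1.71, -1.50 and -1.77 in WT. RPS22A stood at -1.12, -1.08, -1.24, -0.82, -0.85 and -2.90 in kfc1, against -3.19, -0.49, -1.11, -0.47, -0.58 and -1.50 in WT. RPS22B was thus above RPS22A at 0 h in both genotypes and below it from 2 to 8 h. RPS22B has a coding intron of 483 bases and RPS22A has none. RPS22A also lies next to RPS14B on chromosome X (74910 to 75302, minus strand, and 73787 to 74611, plus strand), and the strand setting of the counting is not given in the sources used here.

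With IME1 and RIM4, RPS genes were lower in kfc1 from the start. At 0 h 15 of 56 were called lower and 0 higher (2.37% of all genes called lower), or 8 once columns were centred on their means; the median was -0.80. The largest differences were those of RPS22A (-1.66), RPS26B (-1.52), RPS19A (-1.29) and RPS12 (-1.25), and the smallest those of RPS22B (-0.11), RPS20 (-0.24), RPS14B (-0.35) and RPS30A (-0.42). RPS22A stood at -2.03 in kfc1 and -0.37 in WT, and RPS26B, a gene for a protein at the messenger RNA exit, at -1.88 in kfc1 and -0.36 in WT. At 0 h with IME1 alone these genes were on the other side, with RPS26B at -0.59 in kfc1 and -2.62 in WT. The IME1 transcript was at 1.22 in kfc1 and 0.14 in WT at 0 h with IME1 and RIM4, and its part in the result was not tested. The RIM4 transcript was at -0.30 in kfc1 and -0.46 in WT, so it was not yet raised at this time. Of the assembly factor genes 2 of 26 were called lower, DIM1 (-1.15) and TSR1 (-1.04), with a median of -0.68, and of the translation factor genes 2 of 38 (median -0.46).

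Over 12 to 48 h with IME1 and RIM4, 12 of 56 RPS genes were called lower in kfc1 and 0 higher (0.922% of all genes called lower), with a median of -0.89. By time, 28 of 56 were at least 1 lower at 12 h (11.1% of all genes), 42 at 24 h (5.45%) and 1 at 48 h (0.567%), and the median was deepest at 24 h (-1.31) and shallowest at 48 h (-0.39). The count was 6 without the 24 h groups and 34 without the 48 h groups. RPS10A stood at -3.94, -3.14 and -2.47 in kfc1 at 12, 24 and 48 h, against -2.33, -1.28 and -1.72 in WT, a mean difference of -1.41. RPS4A (-1.35), which shares windows with its partner, and RPS23B (-1.23) were also among the lowest. At the other end RPS27A had a mean difference of -0.01, RPS14B of -0.21, RPS9A of -0.23 and RPS30A of -0.37. RPS27A stood at -0.61, -0.47 and -0.13 in kfc1, against -1.37, 0.03 and 0.15 in WT. IFH1 was at 1.57 in kfc1 and -0.34 in WT at 12 h, and at -0.23 in kfc1 and 0.54 in WT at 24 h.

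Against 0 h with IME1 and RIM4, 31 of 56 RPS genes were called lower in kfc1 (13.2% of all genes) and 25 of 56 in WT (11.4%), with 0 higher in either (20.4% of all genes in kfc1 and 15.5% in WT); the median was -1.02 in kfc1 and -0.95 in WT. The single-copy genes stood out by count: 8 of 8 were called lower in each genotype, against 23 of 48 duplicated genes in kfc1 and 17 of 48 in WT. Their median change was -1.58 in kfc1, where duplicated genes had -0.93, and -1.38 in WT, where duplicated genes had -0.82. RPS3, which encodes a protein at the messenger RNA entry site, stood at -1.17, -3.45, -2.96 and -3.06 in kfc1 at 0, 12, 24 and 48 h, against -0.47, -2.33, -1.59 and -2.57 in WT. RPS20, a gene for a head protein, stood at -0.85, -3.27, -2.98 and -2.58 in kfc1, against -0.61, -2.25, -1.47 and -2.33 in WT. Both were far down at every time after 0 h and had not returned at 48 h. The start differed too: at 0 h the 8 single-copy genes had a median of -1.18 in kfc1 and -0.45 in WT, above the -1.64 in kfc1 and -0.75 in WT of the 48 duplicated genes. At 12 h the single-copy median was -3.09 in kfc1 and -2.05 in WT, and the duplicated median -2.85 in kfc1 and -1.90 in WT. At 48 h they were further apart, with single-copy medians of -2.56 in kfc1 and -2.32 in WT and duplicated medians of -1.93 in kfc1 and -1.57 in WT. In kfc1 without overexpression the counts called lower over time were 6 of 8 single-copy and 13 of 48 duplicated genes. Other comparisons showed no such excess. Between genotypes over 12 to 48 h with IME1 and RIM4 the counts were 1 of 8 and 11 of 48. For IME1 against none in WT they were 0 of 8 and 8 of 48. Of the single-copy genes only RPS13 has a coding intron, and copy number and introns were not separated.

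Other single-copy genes took the same course. RPS2, which encodes a protein of the messenger RNA entry tunnel, stood at -3.17, -2.93 and -2.78 in kfc1 at 12, 24 and 48 h, against -2.18, -1.41 and -2.38 in WT. RPS13 stood at -2.54 in kfc1 at 48 h, against -2.33 in WT. RPS12 was at -2.79 in kfc1 and -2.31 in WT at 48 h, and RPS15 at -1.90 in kfc1 and -1.79 in WT. At 48 h, then, the genotypes were close for RPS13 and RPS15. They were no closer for RPS12 and RPS2 than for the family, whose median difference at 48 h was -0.39. RPS31, which encodes a ubiquitin fusion, stood at -2.96 and -2.60 in kfc1 at 12 and 24 h, against -1.95 and -0.97 in WT.

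In the same comparison the lowest members included RPS20 (-2.09), RPS22B (-2.04) and RPS3 (-1.98) in kfc1, and RPS3 (-1.69), RPS2 (-1.64), RPS9B (-1.51) and RPS22B (-1.49) in WT. The highest were RPS27A (0.79), RPS14B (0.52), RPS28B (0.18) and RPS24B (0.13) in kfc1, and RPS14B (0.39), RPS24B (0.11), RPS27A (-0.11) and RPS28B (-0.15) in WT. Genes for assembly factors did not share the fall: in kfc1 9 of 26 were called higher and 0 lower (median 0.81), with DIM1 at 2.20 and BUD22 at 1.57, and in WT 1 was higher, BUD22 (1.22), with a median of 0.31. Of all genes 20.4% were called higher in kfc1 and 15.5% in WT, so the WT count was below the share of all genes. Of the translation factor genes 5 of 38 were called lower and 1 higher in kfc1 and 8 lower in WT. Of all genes 13.2% were called lower in kfc1 and 11.4% in WT, so the kfc1 count was near that share and the WT count above it. ASC1 was at -2.18 in kfc1 and -1.71 in WT. Among the 26 regulators 7 were called higher and 2 lower in kfc1, and 4 higher and 1 lower in WT. The counts called higher were near the shares of all genes called higher, and the counts called lower were below the shares called lower. FHL1 was called higher in kfc1 (1.39) and in WT (1.07), TOD6, a repressor of ribosome assembly genes, in kfc1 (1.58) and in WT (1.22), and IFH1 in kfc1 (1.46). RLI1, which encodes a ribosome recycling factor, was called higher in kfc1 (1.93) and in WT (1.14). It was the only call among the 9 measured genes for ubiquitin, SUMO and small subunit quality control. This count of 1 of 9 was below the share of all genes called higher in each genotype.

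In the IME1 arm, RPS genes were lower than without overexpression at 12 h in both genotypes, and few were called over all times. The strains already differed at 0 h, where the family median with IME1 was -1.33 in kfc1 and -2.79 in WT. Without overexpression it was -0.11 in kfc1 and 0 in WT at 0 h. The differences below therefore cannot be told apart from differences between the strains. Over 2 to 12 h 0 of 56 were called in kfc1 in either direction (4.06% of all genes higher and 2.84% lower; median -0.46), or 11 without the 2 h groups. This median was -0.72 without the 2 h groups and -0.10 without the 12 h groups. In WT 8 of 56 were called lower (3.97% of all genes; median -0.68), or 16, 5 and 4 without the 2 h, 4 h and 12 h groups. The medians at 2, 4, 6, 8 and 12 h were 0.57, -0.19, -0.41, -0.34 and -2.0 in kfc1, and -0.27, -0.93, -0.52, -0.47 and -1.29 in WT. At 12 h 54 of 56 genes were at least 1 lower with IME1 in kfc1 (7.88% of all genes) and 46 in WT (7.75%). All 56 were below 0 in both genotypes at 12 h, the highest being RPS30A (-0.87) in kfc1 and RPS28A (-0.72) in WT. The lowest genes in WT were RPS9A (-1.93), RPS21B (-1.37), RPS22B (-1.22) and RPS28B (-1.12), and in kfc1 RPS21B (-0.92), RPS28B (-0.90), RPS1B (-0.83) and RPS18B (-0.80). RPS9A stood at -1.28, -2.61, -1.67, -1.30 and -1.77 in WT with IME1, and between -0.08 and 0.42 in WT without it at the same times, so the ranges did not overlap. Of the regulators only CRF1, a corepressor of ribosomal protein genes, was called, lower with IME1 in kfc1 (-1.41) and in WT (-1.93).

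At 12 h the genes called lower with IME1 and RIM4 than with IME1 alone were mostly copies that share sequence. In kfc1 6 of 56 RPS genes were called lower (2.72% of all genes; median -0.31), and all 6 belong to the 4 pairs that share 100-base windows, RPS6A, RPS6B, RPS24A and RPS24B among them. In WT 7 of 56 were called lower (5.97% of all genes, median -0.35). Of these, 5 were again copies that share 100-base windows, the others being RPS9A (-1.37) and RPS22B (-1.22). The WT samples with IME1 alone came from another series, so in WT these differences cannot be told apart from those between the series. RPS6B, a gene for the protein phosphorylated downstream of TOR, had the largest difference, -1.88 in kfc1 and -2.19 in WT. With the 8 genes of these 4 pairs left out, the counts were 0 in kfc1 and 2 in WT. At the high end stood RPS21B (0.24) in kfc1 and RPS28B (0.48) in WT.

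The same 8 genes stood lower against the rest of the family in the IME1 and RIM4 arm than in the other arms, though not all of them lay below the family median. RPS24B stood at -0.97 in WT at 48 h, above the family median of -1.68, and RPS4A was level with the family in WT at 0 h. RPS6B stood at -3.00, -3.61, -3.53 and -3.23 in kfc1 at 0, 12, 24 and 48 h, against -1.95, -3.02, -2.18 and -2.49 in WT, while without overexpression it stood at -1.64, -0.75, -0.29, -0.37 and -0.10 in kfc1 at 2, 4, 6, 8 and 12 h and between -0.25 and 0.10 in WT. Taking each gene's offset from the median of the other RPS genes, the mean offset in this arm minus that in the other arms was -1.54 for RPS6B, -1.11 for RPS6A, -0.86 for RPS24A, -0.47 for RPS24B, -0.35 for RPS4A and -0.31 for RPS4B. The 8 genes of the 4 pairs were the 8 lowest of 56, and the next was RPS10A at -0.30, so RPS4 lay at the edge of the rest. The offset was seen beyond the family: genes of the genome with at least 50% of their windows in another gene had medians at 0 h of -1.38 in kfc1 (143 genes) and -1.17 in WT (142 genes) in this arm, where genes with none had 0.02 and 0.01. In the IME1 arm at 0 h the medians for such genes were -0.11 in kfc1 and -0.30 in WT, and in kfc1 without overexpression -0.03. TEF1 and TEF2, which encode the same elongation factor, had differences of -2.28 and -2.26 in kfc1 between this arm and the IME1 arm at 12 h. The cause was not tested, and any comparison of these 8 genes between this arm and the others includes the offset.

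**Figure D3:**
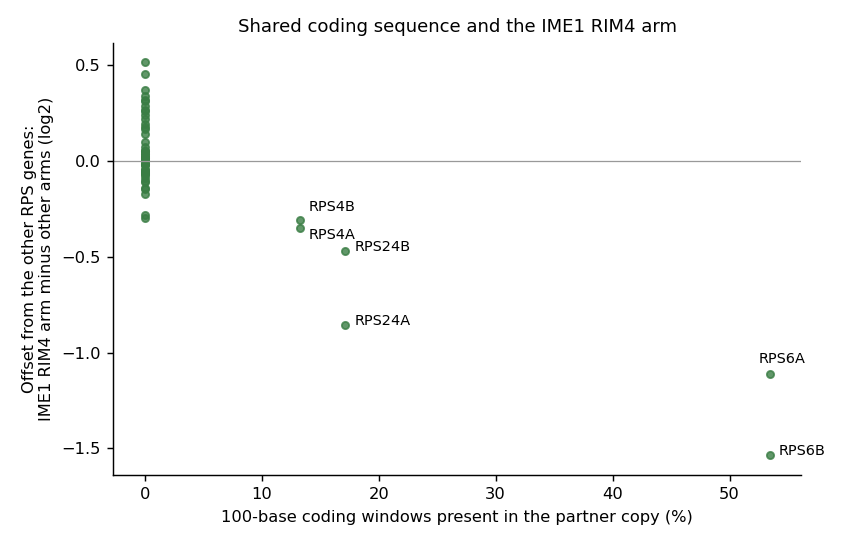
Offset of RPS genes from the median of the others in the IME1 and RIM4 arm minus that in the other arms (y axis, log2) against the share of its 100-base coding windows found in the partner copy (x axis, percent), for 53 of the 56 genes, with the 6 plotted genes above 0% named. These range from -1.54 (RPS6B) to -0.31 (RPS4B), and the genes at 0% start at -0.30.

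The copies of a pair were compared directly as the A ratio minus the B ratio in each of the 31 conditions. Both ratios are relative to the same reference, so the difference says which copy changed more, not which is more abundant. The mean size of the difference had a median over pairs of 0.38, and 6 of 24 pairs had a mean of at least 0.5 in size. The correlation of A with B over the conditions had a median of 0.93 and was lowest for RPS14 (0.65). Identical proteins did not go with closer transcripts: the mean size was 0.38 over pairs with identical proteins and 0.38 over the others.

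RPS23 was the pair furthest apart and the only 1 of 24 with the same sign throughout: RPS23A was above RPS23B in 31 of 31 conditions, by 0.90 on average and by at least 1 in 15. RPS23A (chromosome VII, 726974 to 727730) stood at -0.38, -0.60, -0.71, -0.51 and -2.11 in kfc1 with IME1 at 2 to 12 h, against -0.10, -0.46, -0.35, -0.14 and -1.04 in WT. RPS23B (chromosome XVI, 794965 to 795767) stood at -1.45, -1.98, -2.01, -1.55 and -3.72 in kfc1, against -0.98, -1.63, -1.68, -1.13 and -2.11 in WT. The B copy was the lower by about the same amount in both genotypes, with mean differences of 0.96 in kfc1 and 0.84 in WT. The copies were closest at 0.02, in kfc1 with IME1 and RIM4 at 0 h.

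In RPS24 and RPS7 the B copy held up better. RPS24B (chromosome IX, 231553 to 232369) was above RPS24A (chromosome V, 306323 to 307196) in 30 of 31 conditions, with a mean difference of -0.81. RPS24A stood at -4.12, -3.45 and -3.32 in kfc1 with IME1 and RIM4 at 12, 24 and 48 h, against -2.76, -2.06 and -2.51 in WT, and RPS24B at -2.38, -2.25 and -1.81 in kfc1, against -1.58, -0.93 and -0.97 in WT. In each of these conditions the B copy was the higher; this pair shares windows, so its values are uncertain as said above. RPS7B (chromosome XIV, 443398 to 444315) was above RPS7A (chromosome XV, 505794 to 506767) in 29 of 31 conditions (mean -0.69), and these copies encode the least alike proteins of any pair, 87.9% identical. With IME1 RPS7B stood at -0.37, -0.31, -0.04, -0.61 and -1.86 in kfc1 at 2 to 12 h, against -0.18, -0.49, 0.15, -0.40 and -1.03 in WT, below which the family median lay at each time.

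In RPS14 and RPS27 both copies lay above the median of the other RPS genes in most conditions, 1 copy by more. RPS14B and RPS14A were above it in 29 of 31 conditions each, with mean offsets of 1.00 and 0.33. RPS27A was above it in 31 conditions and RPS27B in 24, with mean offsets of 0.94 and 0.22. RPS14B (chromosome X) was above RPS14A (chromosome III, 177500 to 178220) in 28 of 31 conditions, by 0.67 on average. RPS14B stood at -1.09, -1.13, -0.44 and -0.12 in kfc1 with IME1 and RIM4 at 0, 12, 24 and 48 h, against -0.74, -1.02, -0.07 and 0.03 in WT, and RPS14A at -0.63, -2.17, -1.79 and -1.83 in kfc1, against -0.07, -1.35, -0.94 and -1.46 in WT. At 0 h RPS14A was the higher copy and at the later times RPS14B, so the copies crossed in both genotypes. RPS27A (chromosome XI, 158613 to 159212) was above RPS27B (chromosome VIII, 147871 to 148669) in 28 of 31 conditions. Its lead averaged 1.01 in kfc1 and 0.41 in WT, and was largest, 2.10, in kfc1 with IME1 and RIM4 at 12 h.

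RPS9 changed sign with the condition. RPS9A (chromosome XVI, 404950 to 406044) was above RPS9B (chromosome II, 604508 to 605508) in 18 of 31 conditions and below it in 13, with extremes of 1.73 in kfc1 with IME1 and RIM4 at 48 h and -0.97 in WT with IME1 at 4 h. At 48 h RPS9A stood at -1.01 in kfc1 and -0.70 in WT, and RPS9B at -2.73 in kfc1 and -2.30 in WT. The average by arm was 0.50 without overexpression, -0.06 with IME1 and 0.51 with IME1 and RIM4.

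The pairs closest together were RPS0, RPS26 and RPS18, with mean sizes of 0.13, 0.22 and 0.22. RPS0A and RPS0B, genes for a protein at the messenger RNA exit, were never more than 0.31 apart, although their coding parts are only 90.0% identical and their upstream matches differ, RPS0B having 1 to the first Rap1 form and RPS0A 1 to the stricter form. RPS26 ranged from -0.70 in kfc1 with IME1 at 12 h to 0.86 in kfc1 with IME1 and RIM4 at 0 h, and RPS18, which encodes a head protein, from -0.46 to 0.42. RPS22 had a small mean (0.15) but the widest swing, from -1.81 in WT with IME1 at 0 h to 1.24 in WT with IME1 at 6 h. Over all 24 pairs neither a high coding identity nor identical proteins marked the close pairs, the correlation of mean size with coding identity being -0.14 over 24 pairs.

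**Figure D4:**
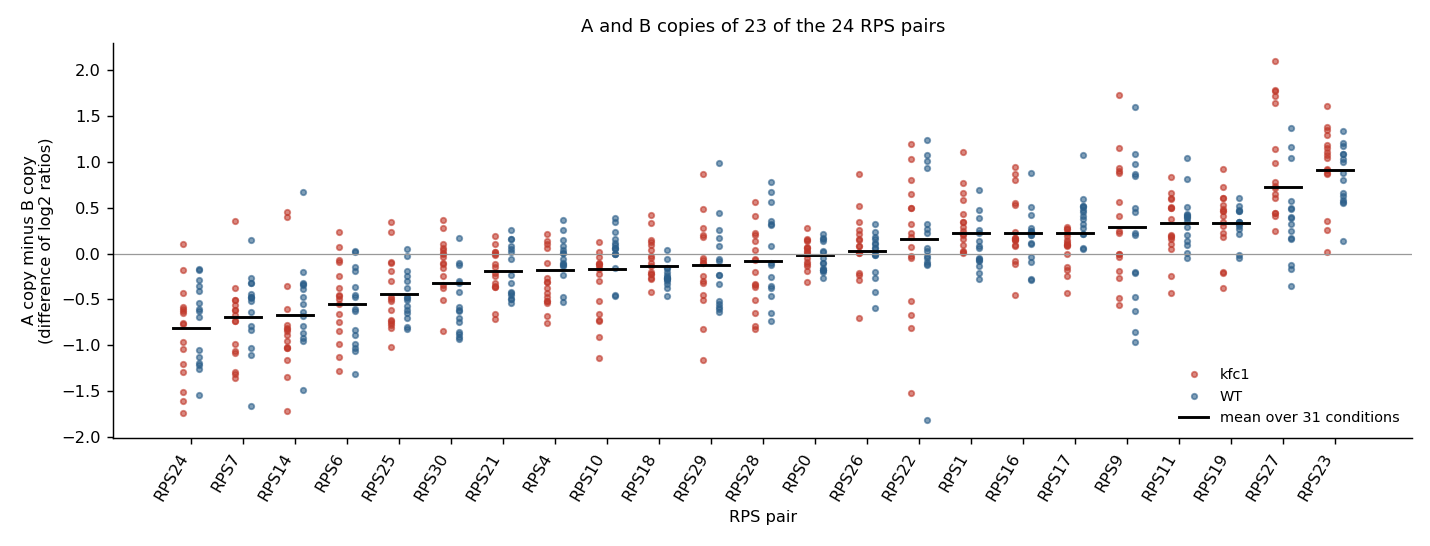
A copy minus B copy (y axis, difference of log2 ratios) for 23 of the 24 RPS pairs (x axis, ordered by mean), with 1 point per condition in kfc1 (red, left) and WT (blue, right); bars are means over 31 conditions. RPS24 lies lowest with a mean of -0.81 and RPS23 highest with 0.90, and RPS22 spans -1.81 to 1.24.

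**Figure D5:**
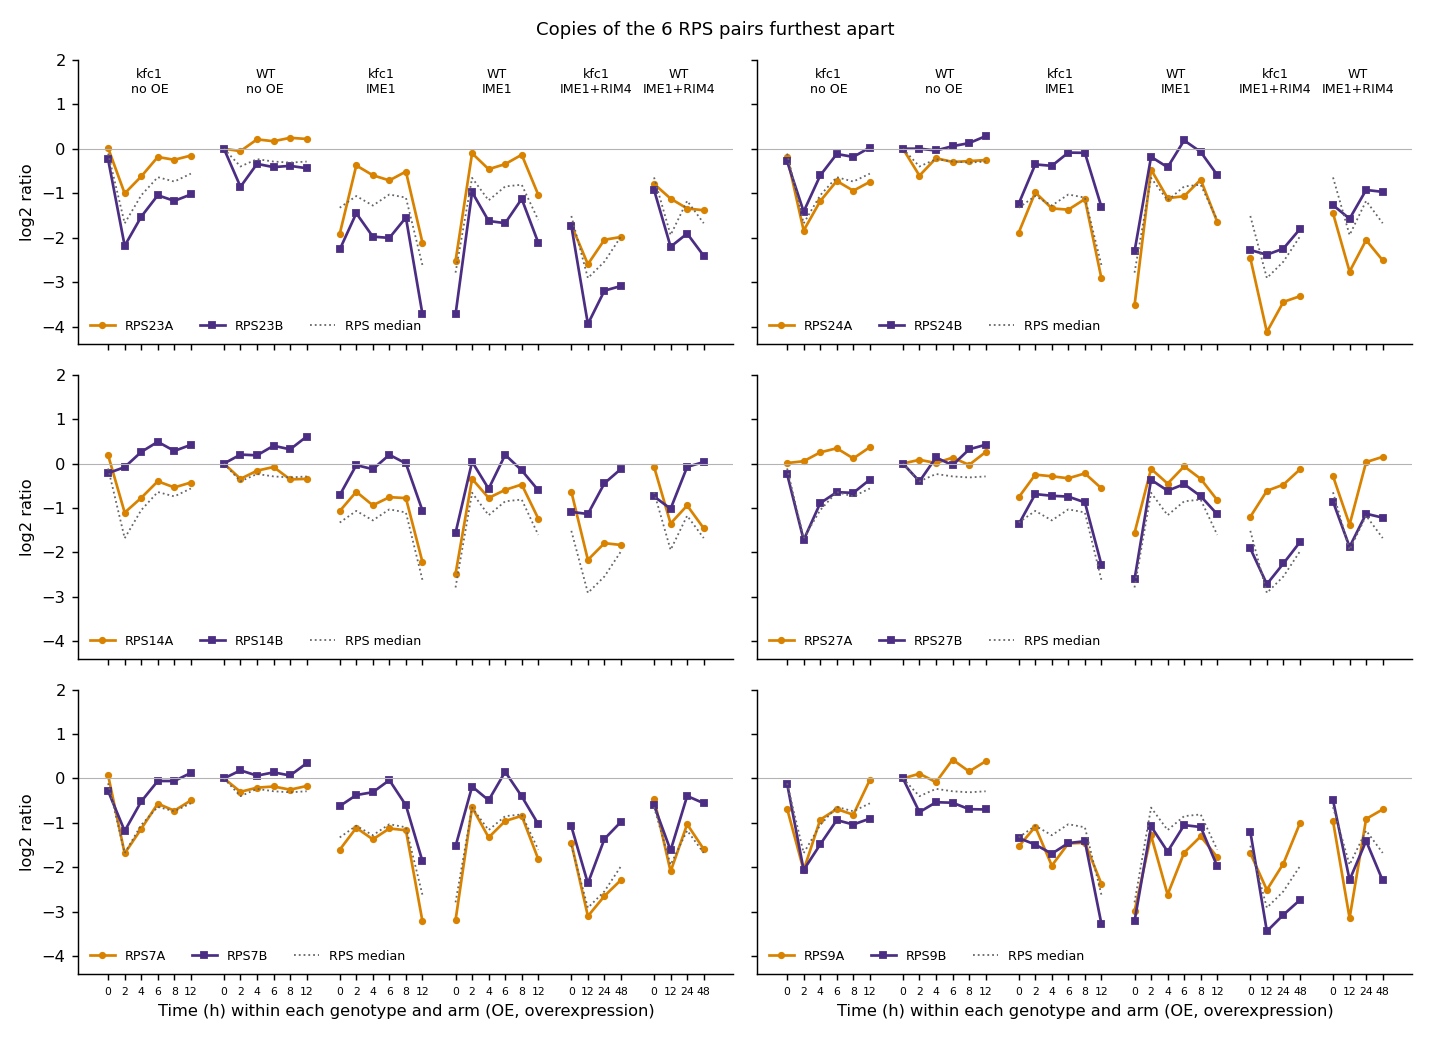
Log2 ratios (y axis) of the A copy (orange circles) and B copy (purple squares) of 6 RPS pairs against time in hours (x axis) in kfc1 and WT of each arm, with the RPS median dotted. RPS23B runs below RPS23A in all 31 conditions, and RPS24A and RPS7A run below their partners in nearly all. RPS27A lies above the median of the other RPS genes in 31 of 31 conditions, and RPS14A and RPS14B in 29 each.

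Markers of the state of the cells moved as well. Over time the 8 meiotic markers had medians of 1.28 in kfc1 and 0.77 in WT without overexpression, 2.59 in kfc1 and 2.73 in WT with IME1, and 4.78 in kfc1 and 4.37 in WT with IME1 and RIM4. The 6 markers of the mitotic cycle had medians of -1.86 in kfc1 and -1.55 in WT without overexpression, -2.24 in kfc1 and -1.04 in WT with IME1, and -1.62 in kfc1 and -2.36 in WT with IME1 and RIM4. Not all 6 fell. In WT with IME1, 2 were called higher (24% of all genes) and 3 lower (819 of 6500 genes). In kfc1 with IME1 and RIM4, 1 was called higher (20.4% of all genes) and 4 lower (13.2%). The 13 markers of haploid or mating-competent cells had 8 called higher over time in kfc1 and 8 in WT with IME1 and RIM4, with medians of 1.18 in kfc1 and 1.30 in WT, where 20.4% of all genes were called higher in kfc1 and 15.5% in WT. Between genotypes the medians of the meiotic and the haploid list stayed between -0.25 and 0.24, and those of the mitotic list between -0.59 and 0.91. Their part in the RPS results was not tested.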

How the data were processed

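Poly(A) RNA of 64 samples in 32 groups of 2 was sequenced by the authors. They deposited 1 table of log2 ratios per gene and group, with the replicates combined; the log base is not given and was taken as 2. Per the submitters' processing notes BWA and DESeq2 were used, on sacCer3; their roles are not given. The planned tests needed values per replicate, so no test, error, depth or interval could be given.

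Rows were matched to R64 by locus tag (5986 of 6660). The kfc1 column at 0 h was added to 5 kfc1 columns, and 16 comparisons were taken as differences of ratios with pandas 2.3.3 and numpy 2.4.6 (Python 3.11.15). A call needed a mean of at least 1 in size and the same sign at each time. The rule was checked on simulated data, but only with differences of none or well past 1. That check cannot tell how the rule treats values near 1 or the noise of these data. Sequences were read from the RefSeq R64 genome with Biopython 1.88.

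The members and gene lists were chosen with earlier results of these data known. Named were the 4 highest and 4 lowest members of each comparison, the 6 widest and 3 closest pairs, the 4 least like the family, single-copy members and up to 4 genes of each other list. RPS10A at 12 to 48 h, RPS16B at 2 h, the RPS6 and RPS4 copies in the arm offset, and TEF1, TEF2, VIR1, IFH1 and IME1 values by condition were chosen after their values were seen. Values of some members are not reported here by name; counts and medians include them.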

Additional observations from a re-analysis of the deposited data

Results flagged for a closer look

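The genotype difference of the RPS genes at 0 h ran in opposite directions in the overexpression strains. Its median over the 56 genes was 1.55 with IME1 and -0.80 with IME1 and RIM4, and the difference between these was not tested. RPS22A, RPS26B and RPS12 stood among the 4 most changed genes in both, at 2.08, 2.03 and 1.91 with IME1, and at -1.66, -1.52 and -1.25 with IME1 and RIM4. The groups at 0 h were sampled at the start of the time courses. The RIM4 transcript was then at -0.30 in kfc1 and -0.46 in WT of the strains with IME1 and RIM4. The WT samples with IME1 came from another series.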

How the results depend on the processing

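No paired analysis was possible because the deposited columns combine the replicates, and leaving out a replicate could not be run for the same reason. The medians of the 16 comparisons moved by less than the spread over time points or members under all alternatives run, but 3 moved by over 1.5 times. That of kfc1 over time with IME1 was -0.11 in full, 0.24 without 12 h, -0.21 with columns centred on their means, and -0.20, -0.20 and -0.17 without 2 h, 6 h and 8 h. That of IME1 against none in kfc1 was -0.46 in full, -0.72 without 2 h and -0.10 without 12 h, and the genotype median at 2 to 12 h with IME1 was -0.42 in full and -0.25 without 12 h. Counts of RPS genes called lower moved most with the threshold, and are given at 0.5 in place of 1 with the share of all genes. The genotype counts were 2 at 0 h (6.27%) and 43 at 2 to 12 h (4.81%) without overexpression, 8 at 2 to 12 h with IME1 (2.51%), and 48 at 0 h (15.4%) and 47 at 12 to 48 h (5.68%) with IME1 and RIM4. Over time they were 44 in kfc1 (16.4%) and 9 in WT (6.23%) without overexpression, 5 in kfc1 with IME1 (17.5%), and 46 in WT with IME1 and RIM4 (25.3%). For IME1 against none they were 4 in kfc1 (8.39%) and 38 in WT (13.9%), and for RIM4 added to IME1 11 in kfc1 (10.3%) and 17 in WT (17.2%). Of these, the count at 0 h without overexpression and those in kfc1 over time with IME1 and for IME1 against none were below the share of all genes. The genotype count without overexpression at 2 to 12 h was 0 with the kfc1 columns as deposited, 0 without 2 h, 3 without 6 h and 3 without 12 h. The count over time in kfc1 without overexpression was 2 without 2 h. IME1 against none gave 11 in kfc1 without 2 h, and 16, 5 and 4 in WT without 2 h, 4 h and 12 h. With IME1 and RIM4, the genotype count was 8 at 0 h with columns centred on their mean, and 6 without 24 h and 34 without 48 h over the later times. Leaving out the copies that share windows gave 0 in kfc1 and 2 in WT for RIM4 added to IME1. Other counts stayed within 1.5 times. The depth is unknown.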
